A study of Drosophila melanogaster with 4 samples.

Results

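Fat body storage protein genes were followed across 4 expression arrays of Drosophila melanogaster. The set was defined by name and held 6 genes: Fbp1, Fbp2, Lsp1alpha, Lsp1beta, Lsp1gamma and Lsp2. A gene was taken where a probe set carried its symbol and no other symbol. That held for 3 of the 6, Fbp1, Fbp2 and Lsp2, of 11981 genes in all, with 1 probe set each. The 3 Lsp1 genes had no probe set in the annotation used, by symbol or by gene identifier, and were not analysed here. The set was put together with the differences between these arrays already known, so the values are a description and carry no test.

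The arrays were made from young adult males of the wild-type strain Canton-S, 1 to 2 days old, kept for 24 h in the vapour of benzene, toluene or formaldehyde, or not exposed (control). Each group had 1 array, from 300 ng of total RNA. The labels give neither the vapour concentrations nor the number of flies or the tissue taken. No group had a replicate, so no difference could be set against a spread between replicates, and every difference also holds the difference between fly pools, RNA preparations and hybridisations.

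Storage proteins are made in large amounts by the larval fat body, the organ that takes the roles of liver and adipose tissue in insects. They are released into the hemolymph, taken up again before pupation and stored as an amino acid reserve for building the adult. Larval fat body cells survive metamorphosis as free cells and are lost in the first days of adult life, so their transcripts can remain in young adults. Larval serum protein 1 is assembled from the products of Lsp1alpha, Lsp1beta and Lsp1gamma, and larval serum protein 2 from that of Lsp2. These proteins are hexamerins, relatives of arthropod hemocyanins. Fbp1 encodes the fat body receptor for larval serum protein 1, is itself a hexamerin relative and is switched on by the moulting hormone ecdysone late in larval life. Fbp2 encodes a fat body protein related in sequence to alcohol dehydrogenase. It is neither a hexamerin nor a receptor, and it shares with the others the tissue and the time of its expression.

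All 3 measured genes stood highest on the toluene array, then on the formaldehyde array, then on the benzene array, and lowest on the control array. Fbp1 and Fbp2 differed most, by about 3 log2 units between toluene and control, and Lsp2 differed less. The values are the log2 probe set values that the authors deposited, and a difference of 1 log2 unit is 2-fold.

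Fbp1 (CG17285, probe set 1638338_a_at), the receptor gene, had log2 values of 8.76 with benzene, 10.90 with toluene and 10.26 with formaldehyde, against 7.77 on the control array. The toluene and formaldehyde values lay above the other 2, and the benzene value lay closer to the control. The ratios to the control were 1.99-fold higher with benzene, 8.77-fold higher with toluene and 5.63-fold higher with formaldehyde.

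Fbp2 (CG3763, probe set 1640035_at), the relative of alcohol dehydrogenase, had log2 values of 8.78 with benzene, 10.95 with toluene and 10.17 with formaldehyde, against 7.75 on the control array. Its 4 arrays were ordered as for Fbp1. It was 2.04-fold higher with benzene, 9.18-fold higher with toluene and 5.34-fold higher with formaldehyde than on the control array.

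Lsp2 (CG6806, probe set 1641634_at), the hexamerin gene, had log2 values of 10.69 with benzene, 12.19 with toluene and 11.58 with formaldehyde, against 10.56 on the control array. Here the benzene and control values were close together and the other 2 stood apart. Lsp2 was 1.10-fold higher with benzene, 3.10-fold higher with toluene and 2.03-fold higher with formaldehyde. No value of the 3 genes was near the array background, taken as the 95th percentile of 20 control probe sets: the lowest, Fbp2 on the control array, was 2.88 log2 units above it.

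**Figure D1:**
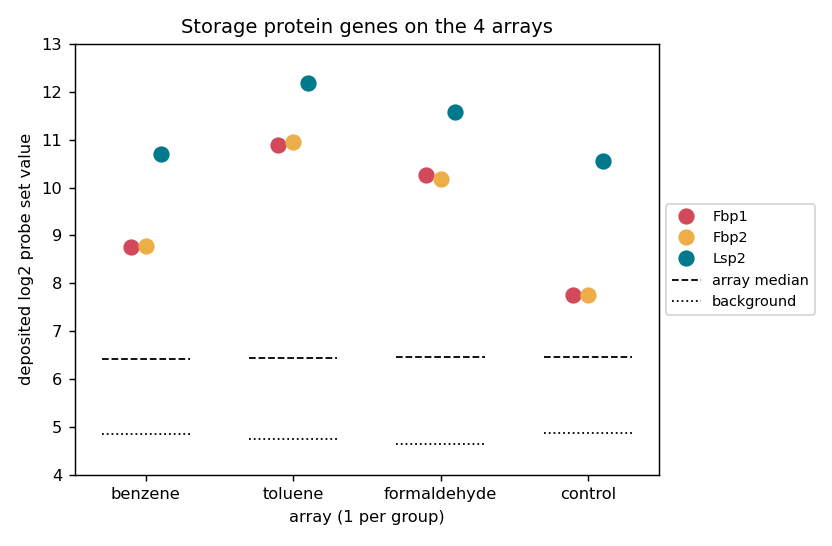
Deposited log2 probe set values (vertical axis) of Fbp1, Fbp2 and Lsp2 on the benzene, toluene, formaldehyde and control arrays, 1 point per array. Dashed lines mark each array's median over probe sets that are not array controls, and dotted lines the background. Fbp1 and Fbp2 nearly coincide on every array, at 10.90 and 10.95 with toluene and 7.77 and 7.75 on the control array.

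The ratios were read against all genes detected in the same comparison, that is, genes with a value at or above the median of its array on at least 1 of the 2 arrays. With toluene, all 3 storage protein genes were at least 2-fold higher than the control, as were 0.246% of 8140 detected genes. Fbp2 and Fbp1 had the highest and second highest ratio of all detected genes, and Lsp2 ranked 6. With formaldehyde, all 3 were again at least 2-fold higher, against 1.08% of 8165 genes, and Fbp1 ranked 13, Fbp2 15 and Lsp2 86. With benzene 1 of 3 passed 2-fold, against 0.332% of 8135 genes: Fbp2 had a log2 ratio of 1.03 and Fbp1 one of 0.99, just inside and just outside the limit. Centring each array on its median put Fbp1 at 1.02 and so past it. For Lsp2, 12.7% of detected genes had a benzene ratio at least as high. Because the members were chosen from these comparisons, nothing is read from their counts. All 3 comparisons use the same control array, on which the 3 genes were lowest.

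**Figure D2:**
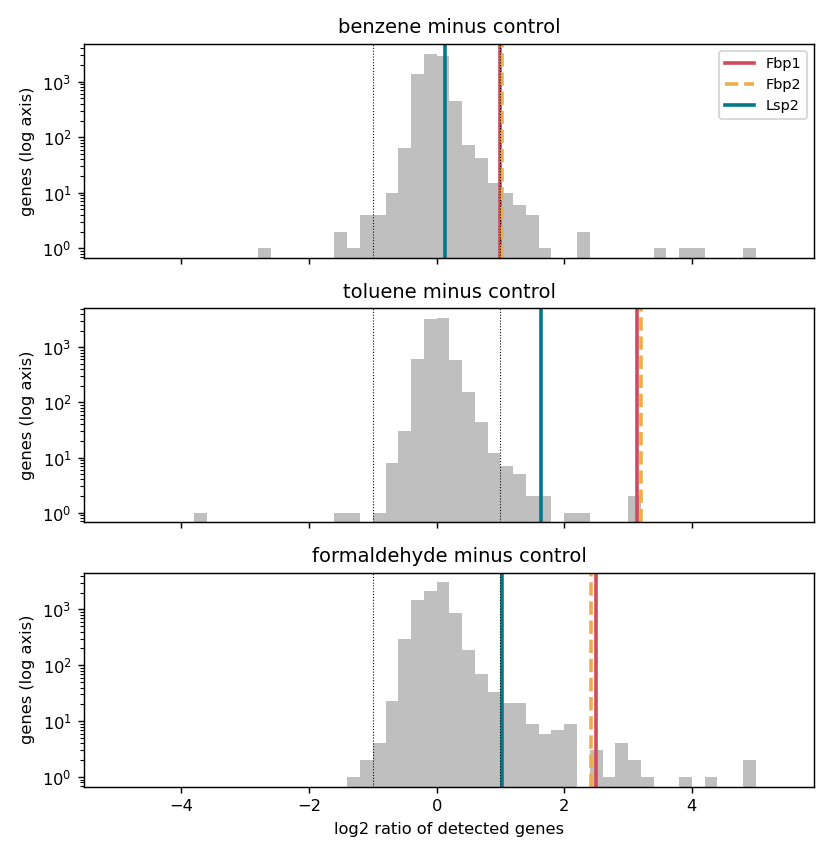
Log2 ratios of all detected genes to the control (horizontal axis) for benzene, toluene and formaldehyde, as numbers of genes per bin of 0.2 on a log axis. Coloured lines mark Fbp1, Fbp2 and Lsp2, and dotted lines mark 2-fold. Lsp2 lies inside the bulk of genes with benzene (0.13), and all 3 genes lie at or beyond 1.02 with toluene and formaldehyde.

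The exposures were also compared directly, which leaves out the control array. Toluene and benzene are aromatic hydrocarbons that differ by a methyl group, and both exposures lasted 24 h, but whether the doses matched is not known. The 3 pairs of compounds were compared without a test or an interval, since each had 1 array. With toluene relative to benzene, Fbp1 was 4.41-fold higher (10.90 against 8.76), Fbp2 4.51-fold higher (10.95 against 8.78) and Lsp2 2.82-fold higher (12.19 against 10.69). All 3 passed 2-fold, as did 0.246% of 8126 detected genes, and they ranked 3, 2 and 6. With formaldehyde relative to benzene, Fbp1 was 2.83-fold, Fbp2 2.62-fold and Lsp2 1.85-fold higher. Of the 3, 2 passed 2-fold, against 0.822% of 8152 genes.

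Of the 3 pairs of exposures, formaldehyde and toluene differed least in these genes. Fbp1 was 1.56-fold, Fbp2 1.72-fold and Lsp2 1.52-fold lower with formaldehyde than with toluene. None of the 3 was 2-fold lower, against 0.0614% of 8145 genes. At a limit of 1.5-fold all 3 were lower, against 0.589% of genes. The robust SD of the log2 ratios over all detected genes was 0.15 in this comparison, 0.14 for formaldehyde relative to benzene and 0.10 for toluene relative to benzene. It was 0.15, 0.15 and 0.21 for benzene, toluene and formaldehyde relative to the control. This is the spread across genes between 2 arrays and not a replicate error, so whether arrays next to each other in the order truly differ could not be judged.

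The 3 genes differed among themselves in the size of their ratios more than in their order. Fbp1 and Fbp2 had nearly the same profile: after each gene's values were centred on its mean over the 4 arrays, the root mean square distance between them was 0.05 log2 units. No other of 8250 genes detected on at least 1 array was as near to either. The distance depends on the size of the differences, in which Fbp2 and Fbp1 ranked 12 and 13, so few genes could lie near them. Lsp2 was 0.61 from Fbp1 and from Fbp2. Its highest and lowest arrays were 1.63 log2 units apart, against 3.13 for Fbp1 and 3.20 for Fbp2. The order toluene, formaldehyde, benzene, control was found in 5.05% of the 8250 genes, counted however small the differences between arrays. Of 144 genes with at least 2-fold between their highest and lowest array, 9 (6.25%) had it, 3 of them the storage protein genes. The storage protein genes were chosen with these differences known, so nothing is read from their place among the 9.

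Genes with the most similar profile were sought by the same distance over the 4 arrays. After Fbp2, the nearest to Fbp1 were Cpr49Ac, a cuticle protein gene (0.35), mat (0.53), Lsp2 (0.61) and CG4269 (0.69). The nearest to Fbp2 were Fbp1 and then the same 4 genes, at 0.35, 0.56, 0.61 and 0.70. Cpr49Ac had log2 values of 6.03 with benzene, 7.84 with toluene and 7.14 with formaldehyde, against 5.52 on the control array. This is the order of the storage protein genes. Cpr49Ac reached the array median only with toluene and formaldehyde, where it was high. In mat the values were 8.61, 10.04 and 10.22, against 8.41 on the control array, so formaldehyde and not toluene was highest.

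The 5 genes nearest to Lsp2 were Lip3 (0.21), a lipase gene, CG15369 (0.22), CG4269 (0.22), Obp99b (0.26), which encodes an odorant-binding protein, and Cpr49Ac (0.26). Lip3 stood at 5.50 with benzene, 6.69 with toluene and 5.86 with formaldehyde, against 5.30 on the control array. In Obp99b the values were 11.50, 12.96 and 11.88, against 11.57 on the control array, with toluene alone standing apart. CG4269 stood at 8.09 with benzene, 9.06 with toluene and 9.01 with formaldehyde, against 7.79 on the control array. In CG15369 they were 5.93, 6.998 and 6.63, against 5.97 on the control array. Lip3 reached the array median only with toluene, and CG15369 and Cpr49Ac only with toluene and formaldehyde. They entered the search through arrays on which they were high, so the filter had a part in their likeness to Lsp2.

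**Figure D3:**
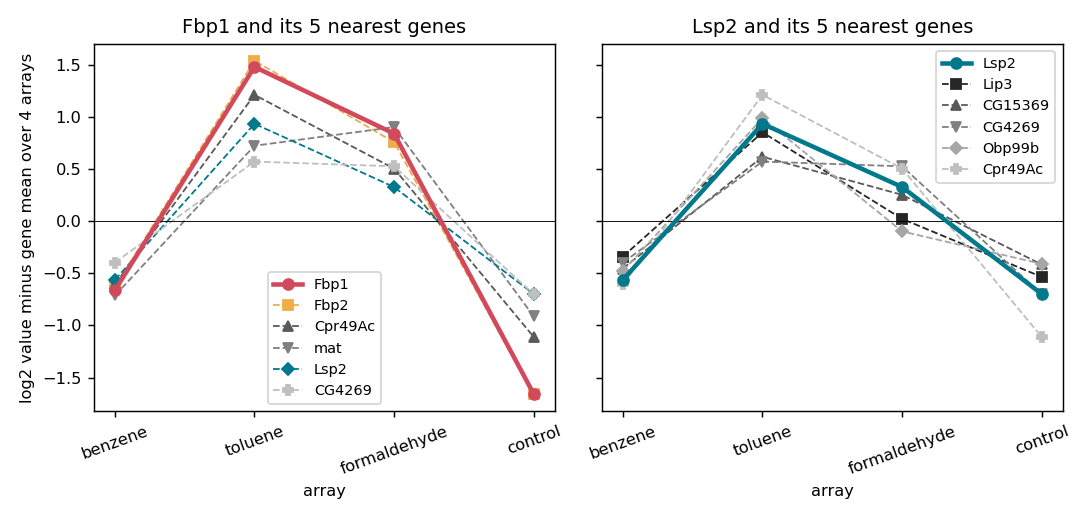
Profiles of Fbp1 (left) and Lsp2 (right), each with the 5 genes nearest to it, as log2 values minus the gene's mean over the 4 arrays (vertical axis) on the benzene, toluene, formaldehyde and control arrays. The lines of Fbp1 and Fbp2 lie on each other (distance 0.05), and those of Lip3 and Obp99b lie lower than that of Lsp2 on the formaldehyde array.

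As a group, other genes of the fat body had smaller median ratios than the storage protein genes. The storage protein genes were chosen with these differences known, so nothing is read from that contrast. Some single genes, such as Tsf1 with benzene (0.95, against 0.13 for Lsp2), lay further from the control than Lsp2. The list of adult fat body genes had 23 members on the arrays, and fit, Lip3 and Obp99b had been put on it with earlier results known. With toluene 19 of 23 detected members were above 0, 3 at least 2-fold, and the median log2 ratio was 0.18, beside 0.01 over all detected genes. Of all detected genes 42.9% were above 0 with benzene, 51.5% with toluene and 52.3% with formaldehyde. The 3 were fit (1.36), Lip3 (1.39), which was detected only through its toluene value, and Obp99b (1.40). Without these 3, 16 of 20 were above 0, 0 passed 2-fold and the median was 0.13.

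With formaldehyde 17 of 22 were above 0 and the median was 0.10, beside 0.01 over all genes. Only Tsf1, for the iron carrier transferrin, passed 2-fold on this list (1.11), beside 1.08% of all detected genes. Its values were 13.01 with benzene, 12.51 with toluene and 13.17 with formaldehyde, against 12.06 on the control array, so that of the exposed arrays toluene was lowest for Tsf1 and highest for the storage protein genes. With benzene 12 of 22 were above 0 and the median was 0.01, beside -0.02 over all genes. The lipoprotein gene apolpp had ratios of 0.07 with benzene, 0.24 with toluene and 0.02 with formaldehyde. The arrays cannot tell more fat body cells from more of a transcript per cell.

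Closest to the hexamerins in protein family are the prophenoloxidases, enzymes of melanin formation in blood cells. PPO1 and PPO3 lay below background on all 4 arrays. PPO2 had log2 values of 6.79 with benzene, 6.31 with toluene and 6.52 with formaldehyde, against 6.58 on the control array. Its lowest value was thus on the toluene array, where the storage protein genes were highest. That value lay under the array median of 6.44, and the log2 ratio to the control was only -0.27. This is 1 gene near the detection limit.

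Ecdysone drives the larval expression of Fbp1, and genes of its receptor, response and synthesis formed a list with 22 members on the arrays. Eip74EF, Eip75B, ImpL3 and phm, also listed, had no probe set of a single symbol. Of the 22, 10 were detected on at least 1 array, and br, Hr3, Hr4 and Eip78C were among those that were not. None of the detected members passed 2-fold in any exposure. The medians were 0.06 with benzene (8 of 10 above 0), 0.08 with toluene (6 of 9) and 0.17 with formaldehyde (9 of 10), beside 42.9%, 51.5% and 52.3% of all detected genes above 0. With no filter on dim probe sets the formaldehyde median was 0.020. The receptor gene EcR stood at 6.47 with benzene, 6.44 with toluene and 6.62 with formaldehyde, against 6.20 on the control array. EcR reached the array median only with benzene and formaldehyde. It entered the counts of those exposures through arrays on which it was high, so the filter had a part in them. The largest ratio was that of ImpL2, which encodes a secreted antagonist of insulin signalling, at 0.44 with formaldehyde.

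Among genes of other larval tissues, 1 larval cuticle gene and none of the salivary gland genes were detected. The glue and prepupal genes of the larval salivary gland had 19 members on the arrays, none of which reached the array median on any array. On each array 16 of the 19 lay below background. The highest value was that of Eig71Ee, at 5.83 with benzene, 5.92 with toluene and 5.69 with formaldehyde, against 5.97 on the control array. Of 14 larval cuticle genes listed 6 were on the arrays, and 1 of these was detected, Lcp65Aa. Its log2 values were 8.14 with benzene, 7.90 with toluene and 8.09 with formaldehyde, against 8.10 on the control array, with ratios of 0.04 with benzene, -0.19 with toluene and -0.01 with formaldehyde.

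Genes of cuticle hardening and pigment, processes of the newly emerged adult, formed a list with 14 members on the arrays, to which Cpr49Ac and mat had been added with earlier results known, mat without a known role in tanning. Those were the members at least 2-fold higher, both with toluene (2.32 and 1.63) and with formaldehyde (1.61 and 1.81). Cpr49Ac was detected only through its toluene and formaldehyde values. Without Cpr49Ac and mat 0 of 8 passed 2-fold with benzene (median 0.17), 0 of 8 with toluene (0.19) and 0 of 9 with formaldehyde (0.20). Above 0 were 7 of 8, 7 of 8 and 5 of 9, beside 42.9%, 51.5% and 52.3% of all detected genes. In this list yellow-f was detected only through its formaldehyde value (6.52, against 6.03 on the control array), so the filter had a part in the formaldehyde median. Autophagy and lysosomal protease genes, whose products break down stored protein in the fat body, had medians of -0.03, 0.01 and 0.11 with benzene, toluene and formaldehyde. Above 0 were 11, 14 and 21 of 25. In this list 0 of 25 passed 2-fold, beside 0.332%, 0.246% and 1.08% of all detected genes at least 2-fold higher. With shares so low, a count of 0 in either list says little. Atg13, of the autophagy initiation complex, had the largest ratio, at 0.42 with toluene.

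**Figure D4:**
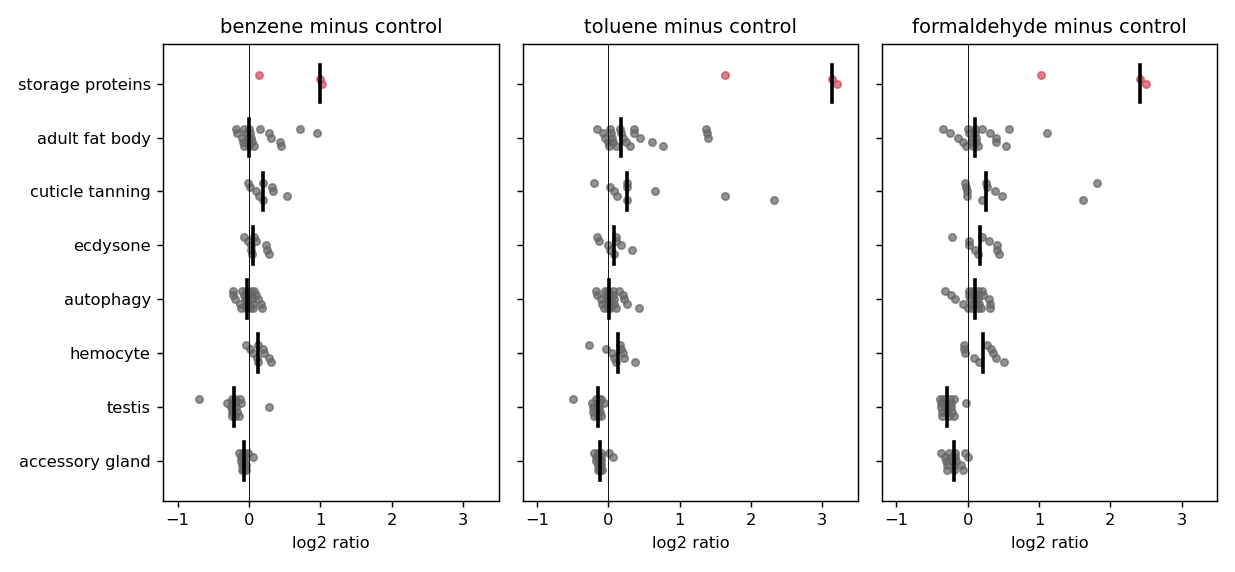
Log2 ratios to the control (horizontal axis) of the detected genes of 8 lists for benzene, toluene and formaldehyde, 1 point per gene, with a bar at the list median. The storage protein genes have medians of 0.99 with benzene, 3.13 with toluene and 2.42 with formaldehyde, and the other lists lie between -0.29 and 0.26. The storage protein genes were chosen with these differences known, so nothing is read from the contrast.

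Markers of other tissues moved by small amounts between the same arrays. Testis genes were below 0 in 17 of 18 detected members with benzene, 17 of 17 with toluene and 17 of 17 with formaldehyde, where 42.9%, 51.5% and 52.3% of all detected genes were above 0. Their medians were -0.22, -0.15 and -0.29, and fzo, a mitochondrial fusion gene of spermatids, differed most (-0.70 with benzene). The mean log2 value of the 23 testis genes on the arrays was 8.97, 9.01 and 8.90, against 9.15 on the control array, and 3 or 4 of them lay below background. Accessory gland genes were below 0 in 16, 15 and 16 of 17 members (medians -0.08, -0.12 and -0.19), with Acp53C14c at -0.37 with formaldehyde. Hemocyte genes, which share srp, PPO1 and PPO2 with the other lists, had medians of 0.13, 0.14 and 0.21, with eater at 0.51 with formaldehyde. The part of these shifts in the storage protein values was not tested.

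Muscle genes had medians of 0.04, 0.02 and 0.07 with benzene, toluene and formaldehyde, with the troponin gene TpnC73F at 0.25 with benzene, and digestive genes 0.10, 0.06 and -0.04. On the digestive list Mal-A7, a maltase gene, was at -1.02 with benzene and LysX, a lysozyme gene, at 2.85 with formaldehyde. LysX was detected only through its formaldehyde value. Of 15 ovary and yolk genes 2 were detected, Yp3 and grk, and Yp1 and Yp2 lay below background on all 4 arrays. As a sign of RNA quality, the GAPDH control probe set at the 3' end exceeded that at the 5' end by 0.93 log2 units with benzene, 0.93 with toluene and 0.95 with formaldehyde, against 0.99 on the control array. For Act5C the difference was 2.76, 2.70 and 2.35, against 2.78 on the control array. For eIF-4a it was 1.56, 1.51 and 1.63, against 1.59 on the control array, so formaldehyde was lowest for Act5C and highest for eIF-4a. The part of these differences was not tested either.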

How the data were processed

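For the 4 arrays a single table was deposited by the authors, holding log2 values per probe set. How it was made is not stated: RMA, MAS5 and version 1.1 of the Affymetrix Expression Console are listed in the submitters' processing notes without roles. Values lay between 2.43 and 14.5, with array medians of 6.42 to 6.46 over the 18769 probe sets that are not array controls. Such near-equal distributions resemble RMA output, which removes overall differences between arrays and compresses ratios of dim probe sets. The labels' protocols state a 3' priming kit. No genome build is named, so no coordinates are given.

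Names were read from the platform's annotation, in which 13646 probe sets had 1 symbol, 402 several and 4721 none. List members were also matched through gene identifiers of RefSeq Release 6. Where a gene had several probe sets, the one with the highest mean stood for it. Values were used as deposited, with Python 3.11.15 and pandas 2.3.3. Groups were taken from the sample titles. Background was the 95th percentile per array of 20 tag and trpn control probe sets (4.64 to 4.88). A gene counted as detected where either of its 2 values reached the median of its array. With 1 array per group there is no test, and the number of arrays limits the precision.

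The members and lists were chosen with earlier results of these data known. The genes named are the 3 members, PPO1 to PPO3, the list members past 2-fold against the control or else the one with the largest ratio, and the 5 nearest genes of each member; EcR, apolpp, Eig71Ee and the yolk genes were named after their values were seen. The counting was tested on simulated data with changes well past the limit, which does not bear on genes near 2-fold. Alternatives were another probe set per gene, 2 filters, 2 scalings and a 1.5-fold limit. No sequence is shown.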

Additional observations from a re-analysis of the deposited data

How the results depend on the processing

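No paired analysis was possible because each group had 1 array, and for the same reason no replicate could be left out. Of 54 recomputed ratios of Fbp1, Fbp2 and Lsp2, 54 stayed within 0.1 log2 units of the reported value, with a largest move of 0.05, and 0 changed sign. Those recomputed with another probe set per gene could not move, since each of the genes had 1 probe set. Only the 2 scalings could move these ratios. The count of storage protein genes at least 2-fold higher with benzene was 1, and 2 when arrays were centred on their median, 2 under quantile normalization and 2 at 1.5-fold, since Fbp1 lies at the limit. At 1.5-fold, 3 were lower with formaldehyde than with toluene. The other counts of storage protein genes stayed within 1.5 times the reported ones. Over all genes, 1.5-fold gave 87 higher with benzene, 83 with toluene and 204 with formaldehyde relative to the control, 66 with toluene and 146 with formaldehyde relative to benzene, and 48 lower with formaldehyde than with toluene; a lower limit lets more genes pass. A filter at the 75th percentile left 13 of the 20 genes higher with toluene, having fewer genes to count. The formaldehyde median of the ecdysone list was 0.020 with no filter, against 0.17, as more undetected genes entered, and that of the cuticle tanning list 0.10 with the filter at the 75th percentile, against 0.26. The other 133 of 135 list medians stayed within 0.1.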

Other observations

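The remaining genes with the array order of the storage protein genes and at least 2-fold between highest and lowest array were named after their values were seen. Beside Fbp1, Fbp2, Lsp2, Cpr49Ac, Lip3 and CG4269 they were CG43133, Tsp42Ep, a tetraspanin gene, and Srr. CG43133 had log2 values of 6.84 with benzene, 7.38 with toluene and 7.37 with formaldehyde, against 5.96 on the control array. Its order thus rests on nearly equal toluene and formaldehyde values. In Tsp42Ep the values were 6.27, 6.98 and 6.71, against 5.83 on the control array. Tsp42Ep reached the array median only with toluene and formaldehyde. Srr stood at 8.48, 9.54 and 8.49, against 8.39 on the control array, so that toluene alone stood apart. Its benzene and formaldehyde values were nearly equal.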
